A study of Homo sapiens with 6 samples.

Results

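The genes described here encode regulators of splicing: the SR proteins SRSF1, SRSF2, SRSF3 and SRSF7, the SR-related protein SRSF11, the TRA2 proteins TRA2A and TRA2B, and the hnRNP proteins HNRNPA2B1, HNRNPH1 and HNRNPC. They were taken as 10 fixed gene intervals of the hg19 build, and every deposited peak that overlapped an interval by 1 bp or more was counted. Of 181131 peaks in 4 lists, 12 did so. They lay in 5 of the 10 genes.

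The peaks come from RNA immunoprecipitation and sequencing (RIP-seq) of SF3B4, in which an antibody recovers a protein with its bound RNA. The cells were wild-type HEK293T, an established line of human embryonic kidney origin, with no treatment named in the labels, and the series has 6 libraries: anti-SF3B4, non-specific IgG and input, each in the experiments RIP-1 and RIP-2. The authors deposited, per experiment, a list named mRNA, whose intervals carry a strand, and a list named NotExon, called the non-exon list below. The lists hold no read counts, so library depth is unknown, and each value is that of 1 experiment without replicate error.

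SF3B4 belongs to SF3b, a protein complex within the U2 snRNP, which recognises the branch site of introns early in splicing. SR and TRA2 proteins bind exonic sequences and favour the use of nearby splice sites, while hnRNP proteins coat nascent transcripts and often act against them. Several of these genes control their own output by splicing: their transcripts can include an exon with an early stop codon, a so-called poison exon, which sends the mRNA to decay. No hg19 annotation was used here, so which exon or intron a peak covers is not stated.

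In SRSF3, which encodes the smallest of the classical SR proteins, the RIP-1 peak with the higher score began at the 5′ edge of the gene interval. The start of this gene in RefSeq (build GRCh38.p14, plus strand, chr6:36594112-36594391) is shown because that peak begins at the gene's edge. Lower case marks the 250 bases before the annotated start and capitals the 30 bases from it on.
SRSF3: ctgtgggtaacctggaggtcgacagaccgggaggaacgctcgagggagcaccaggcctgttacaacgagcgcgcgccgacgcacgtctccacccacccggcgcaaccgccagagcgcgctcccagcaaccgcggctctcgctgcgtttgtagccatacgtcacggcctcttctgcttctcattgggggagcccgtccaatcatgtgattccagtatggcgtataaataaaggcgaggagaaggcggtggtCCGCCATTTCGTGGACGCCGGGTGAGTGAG
The table is of another build than the peaks, so this start was not matched to the edge of the peak. GC content was 62.3% over the whole 300-base window, and the 8 member genes in the table had 13 windows with 49.3% to 66.7%, beside a median of 58.7% over all 35116 windows. Sequences of the hg19 segments under the peaks were not used here.

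Experiment RIP-1 had 7 peaks in 4 of the genes (SRSF3, SRSF11, TRA2A and TRA2B) and RIP-2 had 5 peaks in 2 (SRSF11 and HNRNPC). Both lists of each experiment together held 36757 peaks for RIP-1 and 144374 for RIP-2. SRSF11 was the 1 gene with peaks of both experiments and also the 1 gene with peaks of both kinds of list. The mRNA lists held 7 of the 12 peaks, in SRSF3, SRSF11 and TRA2A, and the non-exon lists held 5, in SRSF11, TRA2B and HNRNPC. The whole mRNA lists had 10960 (RIP-1) and 10280 (RIP-2) peaks, and the non-exon lists 25797 and 134094. Peaks in the 10 genes made up 0.0456%, 0.0195%, 0.00775% and 0.00224% of these lists, in that order. The mRNA-list peaks in SRSF3 and SRSF11 were on the strand that RefSeq gives their gene. For TRA2A the peaks themselves were the source of the strand, so their match was fixed in advance. The matching share of the whole lists is not given here, so nothing particular to these genes is read from the strands. The map of the gene intervals shows where the peaks lie.

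**Figure D1:**
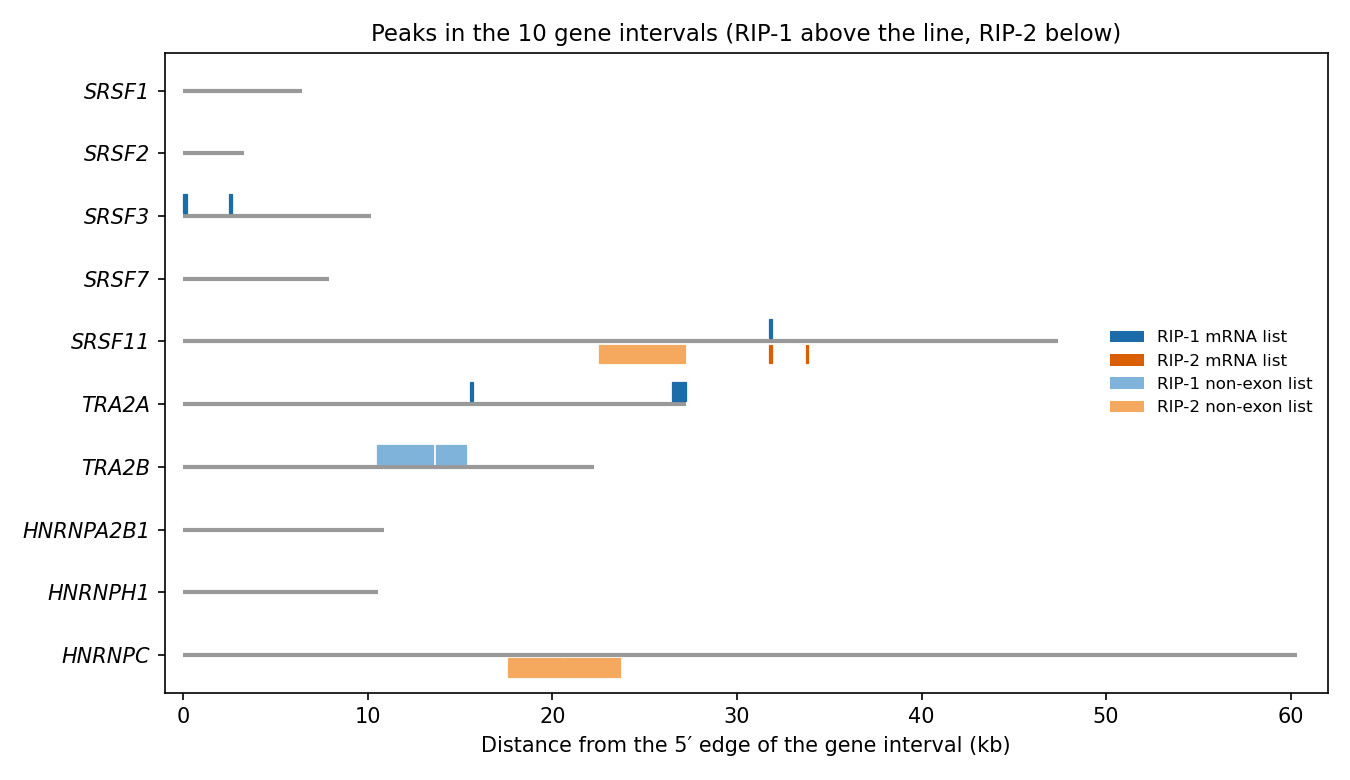
Peaks of the 4 lists along the 10 gene intervals, drawn to scale by distance from the 5′ edge of each interval in kb; grey lines are the intervals, boxes above them RIP-1 peaks and boxes below them RIP-2 peaks. SRSF11 is the only gene with boxes on both sides of its line, and the adjoining boxes in TRA2B and HNRNPC are 2 peaks each, 170 and 60 bases apart.

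Genes with peaks were mostly the long ones. Their intervals measured from 10155 to 60343 bp, and those of the 5 genes without a peak from 3297 to 10858 bp. Together the peakless genes spanned 39.0 kb, and the others 167 kb. Per length, the RIP-1 mRNA list had 24.2 peaks per Mb over the 10 intervals (95% exact Poisson interval 7.87 to 56.5), beside 3.54 per Mb over the chromosomes as far as the lists reach. For the RIP-2 mRNA list the values were 9.69 per Mb (1.17 to 35.0) and 3.32. The RIP-1 non-exon list had 9.69 per Mb (1.17 to 35.0) beside 8.34, and the RIP-2 non-exon list 14.5 (2.998 to 42.5) beside 43.3. The whole-list density lay below the members' interval for the RIP-1 mRNA list and just above it for the RIP-2 non-exon list, and inside it for the other two lists. These intervals cover counting error only. They also take peaks as independent although several lie in the same gene, so they may be too narrow. The whole-list densities also count DNA outside genes, so nothing particular to these genes is read from them.

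SRSF3 carried 2 RIP-1 peaks of the mRNA list and no other. The first, on chromosome 6 from 36562089 to 36562258 (plus strand, as deposited), reached 168 bp into the interval and had a score of 413. That score is the authors' value for each peak, with a floor of 50 in these lists, and its scale is not stated. Only 4.78% of the RIP-1 mRNA list scored higher. The second, from 36564537 to 36564745, lay 2447 to 2655 bp from the 5′ edge and scored 108, with 30.9% of the list above it. Both were consecutive in the numbering of the call, with 2278 bases and no peak between them. RIP-2 had nothing in SRSF3: its nearest peak lay 15354 bases outside the interval, in the non-exon list.

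SRSF11 encodes an SR-related protein found in spliceosomal complexes, and it held the only peak that the experiments had in common. The segment lay on the plus strand of chromosome 1 from 70703107 to 70703239, 67.1% of the way from the 5′ to the 3′ edge, with the same edges in both mRNA lists. RIP-1 gave it a score of 65.3 and RIP-2 one of 143. In RIP-1 68.2% of the list scored higher, and in RIP-2 14.01%, so the segment was among the weaker ones in the first experiment and among the stronger in the second. Identical edges are common in these lists: 468 of all 710 overlapping pairs (65.9%) had both edges equal, and the origin of the common edges is not stated in the labels.

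RIP-2 had 2 further peaks in SRSF11. A segment of the mRNA list from 70705121 to 70705203, only 82 bp wide, scored 61.3, with 76.3% of the list above it. It followed the common segment after 1881 bases. A non-exon peak from 70693882 to 70698539 ended 4567 bases before the common segment and was 4658 bp wide, 9.83% of the gene interval. Its score of 53.6 was near the floor. Its fold enrichment of 3.37 was among the lowest of the list, of which 99.9% had a higher fold. All 3 RIP-2 peaks were consecutive in the call. RIP-1 had no non-exon peak in SRSF11, and its nearest lay 11512 bases outside.

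TRA2A encodes one of the human counterparts of the Drosophila Transformer-2 splicing activator, and its RIP-1 peaks were the strongest and the weakest of the members in that mRNA list. The strong one spanned chromosome 7 from 23555981 to 23556147 on the minus strand. It lay 57.2% of the way along the gene, was 166 bp wide and scored 477, and 4.01% of the list scored higher. The weak one, from 23544400 to 23545188, ran almost to the 3′ edge of the interval (23544399). It was 788 bp wide and scored 51.2, and 96.9% of the list scored higher. Between them lay 10792 bases without a peak of this call. RIP-2 had no peak in TRA2A, and its nearest of any list lay 20726 bases away.

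The shared counts were small. Of the 5 RIP-1 mRNA-list peaks in the genes, 1 overlapped a RIP-2 peak of that kind on the same strand (20%, 95% Wilson interval 3.62 to 62.4), beside 6.41% of the whole RIP-1 list. Of the 2 RIP-2 peaks, 1 did (50%, 9.45 to 90.5), beside 6.91% of the whole RIP-2 list. Both counts are the same SRSF11 segment seen from either list. Wilson intervals are approximate, and with 5 and 2 peaks their limits are not compared with the whole-list shares. No test was made with 1 list per experiment. Neither of the strong RIP-1 segments, in TRA2A and at the 5′ edge of SRSF3, had a RIP-2 partner in any list: the nearest RIP-2 peak was 36235 bases from the first and 15353 from the second.

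**Figure D2:**
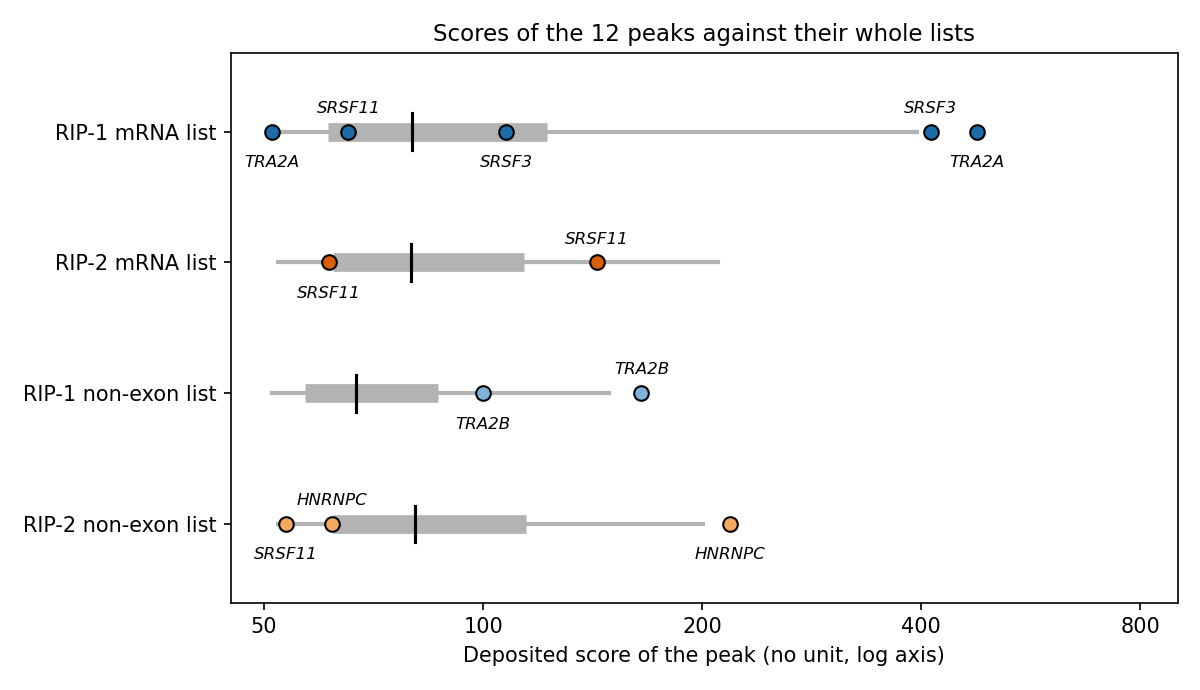
Deposited scores (log axis, no unit) of the 12 peaks, as points labelled by gene, against their whole lists: thick grey bars span the middle 50% of a list, thin bars the 5th to 95th percentile, and black ticks mark the median. The peaks of SRSF3 (413) and TRA2A (477) lie past the 95th percentile of the RIP-1 mRNA list (395), and the weak TRA2A peak at 51.2 lies below the 5th (51.9).

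TRA2B, which encodes the closest relative of TRA2A, had no mRNA-list peak in either experiment but the largest share of its length under peaks among the 10 genes. Both of its peaks were RIP-1 non-exon peaks on chromosome 3. The one nearer the 5′ edge of this minus-strand gene, from 185642410 to 185645410, was 3001 bp wide with a score of 165 and a fold enrichment of 5.84 over the authors' control, which is not named. The other, from 185640613 to 185642239, was 1627 bp wide with a score of 99.96 and a fold enrichment of 5.06. A gap of 170 bases separated them, and 0.935% of the 25773 neighbouring pairs in this list were as close or closer. Peaks taken from 1 gene interval are near each other by selection, while gaps in the whole list had a median of 51300 bases. The share is therefore a description and no test. Together the TRA2B peaks covered 4628 bp, 20.8% of the gene, between 10514 and 15311 bp from its 5′ edge. By score, 3.74% and 16.5% of the list stood above them, but by fold 64.2% and 81.1% did. The nearest RIP-2 peak to the gene was 30042 bases away.

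HNRNPC encodes hnRNP C, a protein that binds uridine tracts in nascent RNA, and its peaks were of the same kind but from RIP-2. They lay on chromosome 14 from 21717013 to 21720072 and from 21714004 to 21716952, separated by 60 bases. Of the 134070 neighbouring pairs of the list, 0.630% were as close or closer, with the same limit as for TRA2B. The first HNRNPC peak was 3060 bp wide with a score of 62.1 and a fold enrichment of 5.24, and the second 2949 bp with 219 and 5.86. They covered 6009 bp, 9.96% of the gene, between 17566 and 23634 bp from the 5′ edge on the minus strand. By score 75.3% and 3.68% of the list stood above them, and by fold 94.2% and 87.0%. No RIP-1 peak lay in HNRNPC, and the nearest was 81991 bases outside.

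All 5 non-exon peaks of the members were wider than the median of their list and had a lower fold enrichment than its median. Widths were 1627 to 4658 bp, beside medians of 710 bp for the RIP-1 list and 564 bp for that of RIP-2. Folds were 3.37 to 5.86, beside medians of 6.55 and 8.19. In the whole lists wide peaks also had lower folds: peaks of 1500 bp or more had a median fold of 5.03 (RIP-1) and 6.35 (RIP-2), and the narrower ones of 6.63 and 8.19. Among these wide peaks of their own list, 28.9% had a higher fold than the 3001 bp peak of TRA2B and 48.9% than its 1627 bp peak, 70.7% than the 3060 bp peak of HNRNPC and 58.6% than its 2949 bp peak, and 99.3% than the SRSF11 peak. The width limit was set after the widths of the members were seen.

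**Figure D3:**
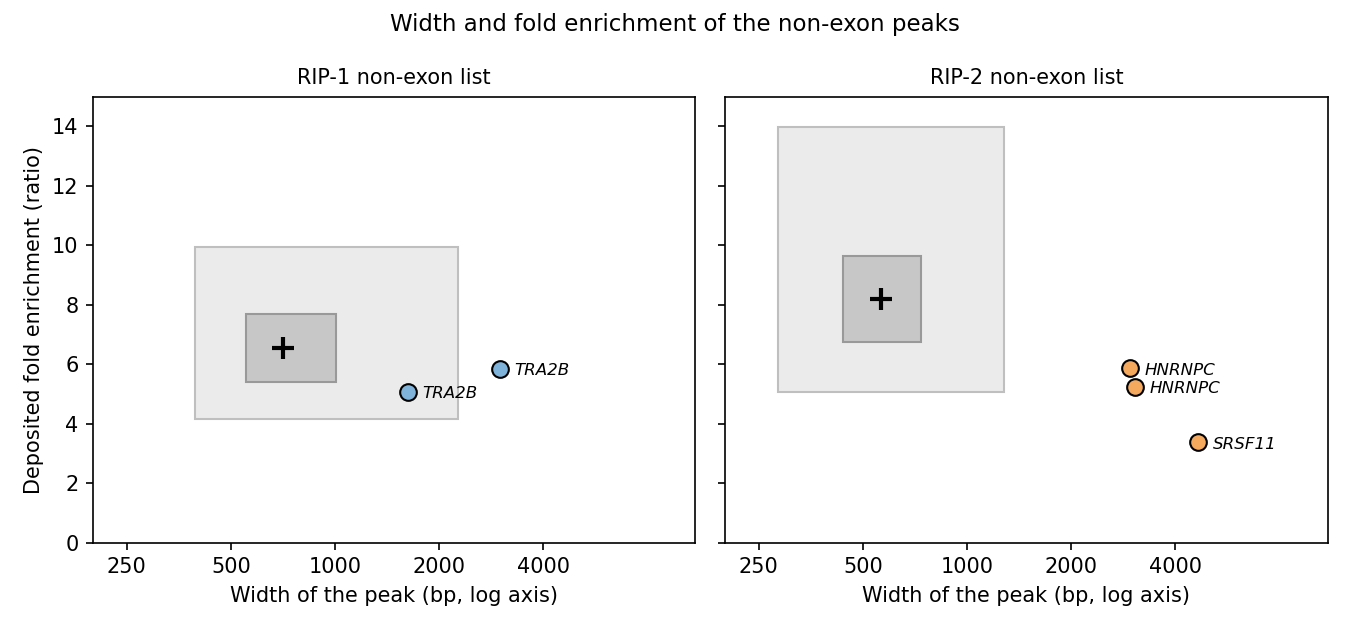
Width (bp, log axis) and deposited fold enrichment (ratio) of the non-exon peaks in TRA2B, HNRNPC and SRSF11, as labelled points, for RIP-1 on the left and RIP-2 on the right. The cross is the median of the whole list, and the dark and light boxes span the middle 50% and the 5th to 95th percentile of each axis taken alone. The HNRNPC and SRSF11 points (2949 to 4658 bp) and the 3001 bp TRA2B point lie to the right of the light box. The 1627 bp TRA2B point lies inside it.

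None of the non-exon peaks was shared: 0 of 2 in RIP-1 and 0 of 3 in RIP-2, beside 18.1% and 3.63% of the whole lists, and with so few peaks a count of 0 sets no useful limit. The false discovery rate (FDR) in the authors' lists was 69.9% for the 3001 bp and 100% for the 1627 bp peak of TRA2B, 76.9% for the 3060 bp and 100% for the 2949 bp peak of HNRNPC, and 70.7% for the SRSF11 peak. No member passed 5%, beside 0.678% of the RIP-1 list and 0% of the RIP-2 list, whose lowest FDR was 68.3%. The mRNA lists give no FDR. The labels do not say whether IgG or input was the control of the calls, so RNA abundance and SF3B4 binding cannot be told apart.

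SRSF1, SRSF2, SRSF7, HNRNPA2B1 and HNRNPH1 had no peak in any list. For SRSF1, a founding member of the SR family, the nearest peak was a RIP-1 non-exon peak 8941 bases past the 3′ edge (score 51.6, fold enrichment 3.16). For SRSF2, known also as SC35, it was a RIP-1 mRNA-list peak 7315 bases away on the minus strand (score 148). SRSF7 stood farthest from any peak among these 5, with 20741 bases to a RIP-2 non-exon peak of score 109.

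The nearest peaks of the peakless hnRNP genes were both from RIP-2. HNRNPA2B1, a member of the hnRNP A/B group, had a non-exon peak 3875 bases past its 3′ edge (1741 bp wide, score 86.6, fold enrichment 3.56). HNRNPH1, whose protein binds runs of guanines, had one 5498 bases before its 5′ edge (score 54.4, fold enrichment 8.28). An interval without a peak is one where nothing passed the authors' call, and without depth this says nothing of whether the RNA was bound.

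**Figure D4:**
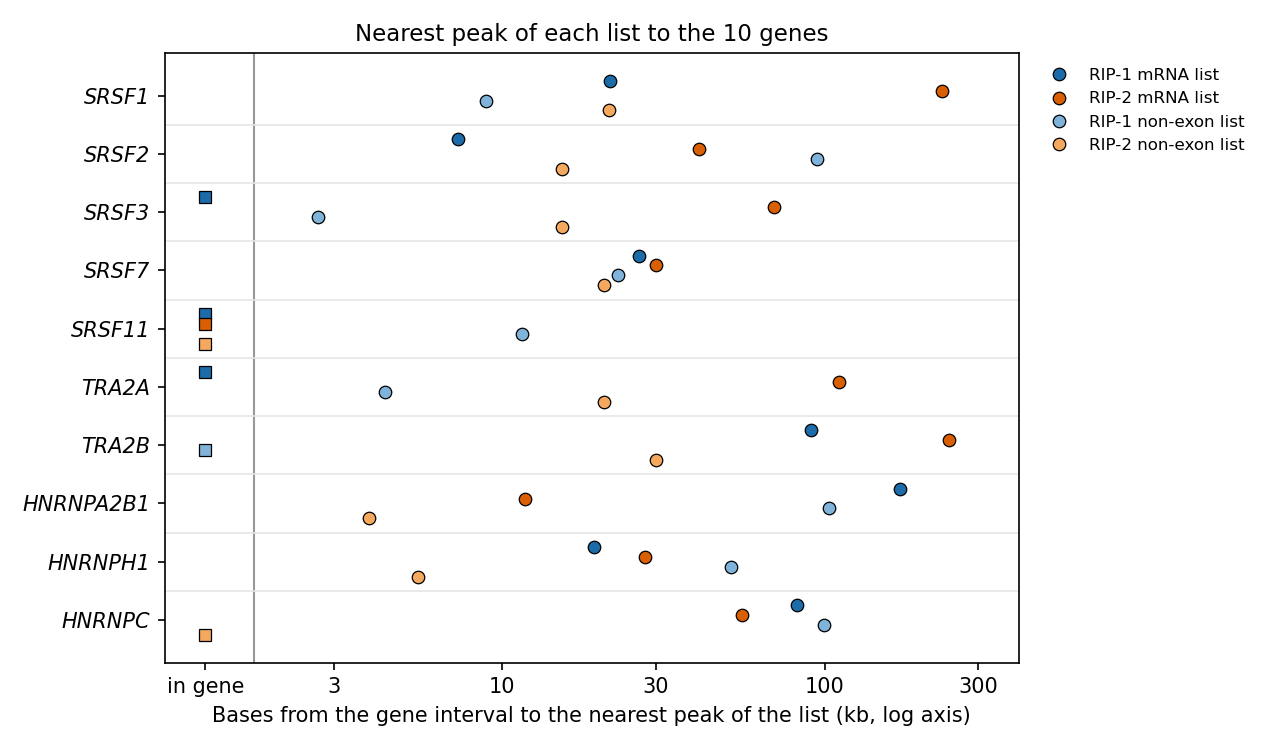
Bases from each gene interval to the nearest peak of each list (kb, log axis), with squares at the left for lists that have a peak inside the gene. SRSF1, SRSF2, SRSF7, HNRNPA2B1 and HNRNPH1 have no square, and SRSF11 is the only gene with more than 1.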

How the data were processed

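Peaks of SF3B4 RIP-seq in HEK293T were read from 4 lists. Per the submitters' processing notes, cutadapt 1.9.3, HISAT2 2.0.4 and hg19 were used. Peaks are named with a MACS prefix. The version, the settings and the control library are not stated there. The authors called peaks once per experiment. The deposited score, the fold enrichment (a ratio), the peak length and the FDR (a percent) are the authors' own values, read from column order because the lists have no header. The length column equals end minus start plus 1, so starts in the non-exon lists count from 1. In the mRNA lists starts may count from 0 or 1, and widths are end minus start.

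Gene intervals were counted from 1. Overlaps, ranks, distances and intervals were computed with Python 3.11.15 and scipy 1.17.1, and the overlap code was tested on simulated data. Gene strands came from the RefSeq table of promoters, or for TRA2A from its own peaks. Shared peaks overlapped by 1 bp or more, on the same strand where one is given. With 1 list per experiment no test was made. All 10 genes are named, with each of their peaks. The genes and the settings were chosen with earlier results of these data known. Alternatives were stricter overlaps, widened gene intervals, the upper 50% by score, other weights of genes and, added after seeing the data, the FDR. Other genes of these families were not analysed here, since their hg19 intervals were not at hand.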

Additional observations from a re-analysis of the deposited data

How the results depend on the processing

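Of the alternative values, 30 stayed within 1.5 times the main value (medians: equal to it) and 10 moved further. Several of the 30 could not move, so their number is no measure of stability. With 0 shared non-exon peaks, stricter settings can only give 0. A median over genes equals the main value where 1 gene holds all peaks. No RIP-1 median score without SRSF11 is among these values. Among the 10 that moved were counts in the upper 50% of each list by score. They were 3 RIP-1 and 1 RIP-2 mRNA-list peaks and 1 RIP-2 non-exon peak in the genes. Shared mRNA-list peaks fell to 0, since the RIP-1 score of the SRSF11 segment is below its list's median. This setting drops the lower 50% of every list, so lower counts are not particular to these genes. An FDR of 5% or less, added after seeing the data, left 0 non-exon peaks of either experiment (0 of 2 and 0 of 3). The whole lists kept 0.678% (RIP-1) and 0% (RIP-2) at this limit, so the RIP-2 count could only be 0. The RIP-1 median score of 108 became 260.05 as a median over genes and 65.3 without SRSF3, and the RIP-2 median fold enrichment of 5.24 became 4.46 over genes and 3.37 without HNRNPC. Medians over so few peaks are set by single genes. Leaving out SRSF11 gave no RIP-2 mRNA-list value, because that list has no peak in another member. No paired analysis was possible because the lists hold 1 value per called peak and none for a library. Neither experiment could be left out of a count of shared peaks, which needs both. Unknown depth limits what an absent peak can show.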

Other observations

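Windows of the same length as each gene, directly beside it on either side, also held peaks. On the side of lower coordinates they had 1 RIP-1 and 2 RIP-2 mRNA-list peaks and 2 RIP-1 and 5 RIP-2 non-exon peaks. That RIP-1 mRNA-list peak is not a separate one. It is the SRSF3 peak at the gene's 5′ edge, whose deposited start lies 1 base before the interval, so it is counted in the gene too. On the side of higher coordinates the windows had 1 of each mRNA list, 4 RIP-1 and 6 RIP-2 non-exon peaks. The surroundings of SRSF11 had peaks of all 4 lists. For SRSF11 a RIP-2 non-exon peak lay 1930 bases before the 5′ edge (1470 bp wide, score 103, fold enrichment 6.99). For SRSF3 a RIP-1 non-exon peak lay 2682 bases past the 3′ edge (747 bp wide, score 55.2, fold enrichment 5.68). For TRA2A, whose weak peak ran almost to the 3′ edge, a RIP-1 non-exon peak followed 4319 bases past that edge (965 bp wide, score 107, fold enrichment 6.63). No window beside SRSF1, SRSF2, SRSF7 or TRA2B held a peak. These windows were chosen after the data were seen, they can hold other genes, and no test was made.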
